A study of Mus musculus with 4 samples.

Results

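Mertk, Axl, Mrc1, Stab1, Cd36, Msr1, Trem2 and Folr2 encode 8 cell surface receptors of macrophages, most of which bind or take up dead cells, modified lipoproteins, glycoproteins or debris. They were chosen by name, and all 8 were listed in the count matrices of all 4 libraries, among 19001 genes listed in all 4 and 21739 listed in any of them. The measurement was droplet single-cell RNA-seq of periwound skin from 6-week-old C57/BL6j mice, with 2 libraries from wounds given PBS (the Control group) and 2 from wounds given exosomes of human umbilical cord mesenchymal stem cells (the hucMSC-Exo group). Exosomes are small membrane vesicles that cells release, and they or PBS were injected around the wound edge. Each library is 1 mouse, so the tests below compare libraries and never cells.

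The 4 libraries held between 1098 and 2422 cells, of which 952 to 2074 passed the cell filter, which asked for 200 to 3000 detected genes and allowed up to 10% of UMIs (unique molecular identifiers, which count RNA molecules) from mitochondrial genes. Between 81.5% and 87.7% of the cells had a UMI of Ptprc, the pan-leukocyte gene, and the files held fewer cells than the study lists for whole skin. Pairs of libraries shared between 0 and 2 cell barcodes. The labels disagreed on 2 points that bear on the groups. The tissue field named gut although the cell type field and the protocol named skin, and the letters in the matrix names paired the libraries otherwise than the titles did, so that Control 2 and hucMSC-Exo 1 would trade places. Every direction between treated and untreated wounds below rests on the titles.

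Uptake receptors fall into several families. Mertk and Axl are TAM receptor tyrosine kinases that bind phosphatidylserine on dying cells through the bridging ligands Gas6 and protein S. Stab1 (stabilin-1) and Cd36 bind phosphatidylserine and modified lipoproteins directly, Msr1 is the class A scavenger receptor, and Mrc1 is the mannose receptor CD206, a common marker of resident and reparative macrophages. Trem2 signals through the adaptor Tyrobp on sensing lipids and apolipoproteins, and Folr2, folate receptor beta, marks resident macrophages in many tissues. In a healing wound macrophages clear spent neutrophils and matrix fragments, and incoming monocytes replenish them.

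The promoters of 3 of the receptors are shown because their RNAs shared the C1q-high gate described below and because each holds a motif of the myeloid factor PU.1. They run from 250 bases before to 50 bases after the start of the gene, 5′ to 3′ on the gene's strand, from RefSeq on GRCm38.p6, and 7 of the 8 receptor genes had an entry. Capitals mark the letters GAGGAA, a PU.1 core, on either strand, and TGCTGA, a half-site of MAF factors, on either strand. The Mrc1 window lies at chr2:14229164-14229463, plus strand, the Stab1 window at chr14:31168592-31168891, minus strand, and the Trem2 window at chr17:48346151-48346450, plus strand.
Mrc1: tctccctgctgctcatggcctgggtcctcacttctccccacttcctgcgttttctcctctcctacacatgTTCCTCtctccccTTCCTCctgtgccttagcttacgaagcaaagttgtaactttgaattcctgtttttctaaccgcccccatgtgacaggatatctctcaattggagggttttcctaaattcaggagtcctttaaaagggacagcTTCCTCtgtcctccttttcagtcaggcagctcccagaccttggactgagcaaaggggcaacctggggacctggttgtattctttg
Stab1: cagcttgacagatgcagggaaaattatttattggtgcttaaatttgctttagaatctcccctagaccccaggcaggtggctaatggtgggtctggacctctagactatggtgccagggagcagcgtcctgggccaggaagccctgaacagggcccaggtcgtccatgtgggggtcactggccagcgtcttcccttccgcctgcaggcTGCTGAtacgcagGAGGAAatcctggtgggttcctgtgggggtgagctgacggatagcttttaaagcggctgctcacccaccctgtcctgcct
Trem2: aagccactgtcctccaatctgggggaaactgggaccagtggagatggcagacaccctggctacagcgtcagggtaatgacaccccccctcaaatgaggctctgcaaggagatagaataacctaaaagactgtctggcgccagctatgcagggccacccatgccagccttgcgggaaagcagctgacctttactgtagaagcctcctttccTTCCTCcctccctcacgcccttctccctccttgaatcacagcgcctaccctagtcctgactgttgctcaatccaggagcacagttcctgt

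GAGGAA was found in the windows of 4 of the 7 genes (Axl, Mrc1, Stab1 and Trem2), against 31.3% of 27025 genes, and Mrc1 held it 3 times. TGCTGA was found in 3 of 7 (Cd36, Folr2 and Stab1), against 21.7% of genes. CACGTG, the E-box read by MITF and TFEB, was found in none of the 7, against 8.09% of genes. The motifs were chosen with the results known, do not overlap one another, and their presence describes the letters of these windows only.

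Cells were sorted in silico into gates by fixed marker genes, none of them a receptor of interest. The C1q-high gate (C1qa, C1qb and C1qc, complement genes of tissue macrophages) held 808 cells, of which Control 1 gave 148, Control 2 gave 326, hucMSC-Exo 1 gave 146 and hucMSC-Exo 2 gave 188, and 4 values in a row follow this order throughout. The monocyte gate (Ly6c2, Chil3, Plac8 and others) held 466 cells, with 54, 147, 86 and 179, and the dendritic gate held 199, with 27, 90, 28 and 54. The osteoclast-like gate (Ctsk, Acp5, Atp6v0d2, Dcstamp, Ocstamp and Cd68) held 149, with 6, 71, 45 and 27. UMIs were summed per library and gate and are given as CPM, UMIs per 1000000 of that sum, with the share of cells that had at least 1 UMI. Since 3' counting gives relative amounts, levels are compared for 1 gene across gates, not between genes.

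The osteoclast-like gate needs a caution on its name. Within the limit of 3000 genes, the median over libraries was 257 CPM for Ctsk and 286 CPM for Acp5, the collagenolytic protease and the acid phosphatase of osteoclasts, and 102 of the 149 cells fell in the same expression cluster as 418 of the C1q-high cells. A further 179 osteoclast-like cells, 12, 113, 46 and 8 by library, lay above the limit, more than the gate kept. In those cells the medians were 5470 CPM for Ctsk and 4290 CPM for Acp5, and Ccr2 and Plac8, which mark monocytes, were at 7.07 and 3.98 CPM. Of the other gate markers, Atp6v0d2 and Ocstamp had higher medians above the limit (620 against 120 CPM and 272 against 121 CPM). Dcstamp changed little (113 against 93.6 CPM), and Cd68 was lower (517 against 565 CPM). Within the limit, single libraries reached 1814 CPM for Ctsk and 1718 CPM for Acp5. The filter on detected genes, which follows the study's own, thus left out the cells with the most Ctsk and Acp5. Comparisons of this gate with other gates are given with and without that filter. Levels and shares of the gate are from cells within the limit unless stated. The version without the limit was chosen after seeing the data. No cluster of the kept cells was named osteoclast-like from the same markers.

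C1q-high cells carried all 8 receptors, and dendritic cells carried little of any but Mrc1 and, in Control 1, Axl. Against the dendritic gate all 8 receptors were higher in the C1q-high gate, where 23% of 6400 genes were called higher. Against the monocyte gate 6 of 8 were higher, with 11% of genes called higher, and against the osteoclast-like gate 5 of 8 were higher, with 4.11% of genes called higher. The median log2 fold change of the 8 was 5.37, 2.04 and 1.35 in the 3 comparisons, against medians over all genes between -0.02 and 0.00. None of the 8 was lower in the C1q-high gate by the test, where 20.5%, 11.3% and 2.92% of genes were called lower against dendritic, monocyte and osteoclast-like cells, and 43.5%, 22.3% and 7.03% in either direction.

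**Figure D1:**
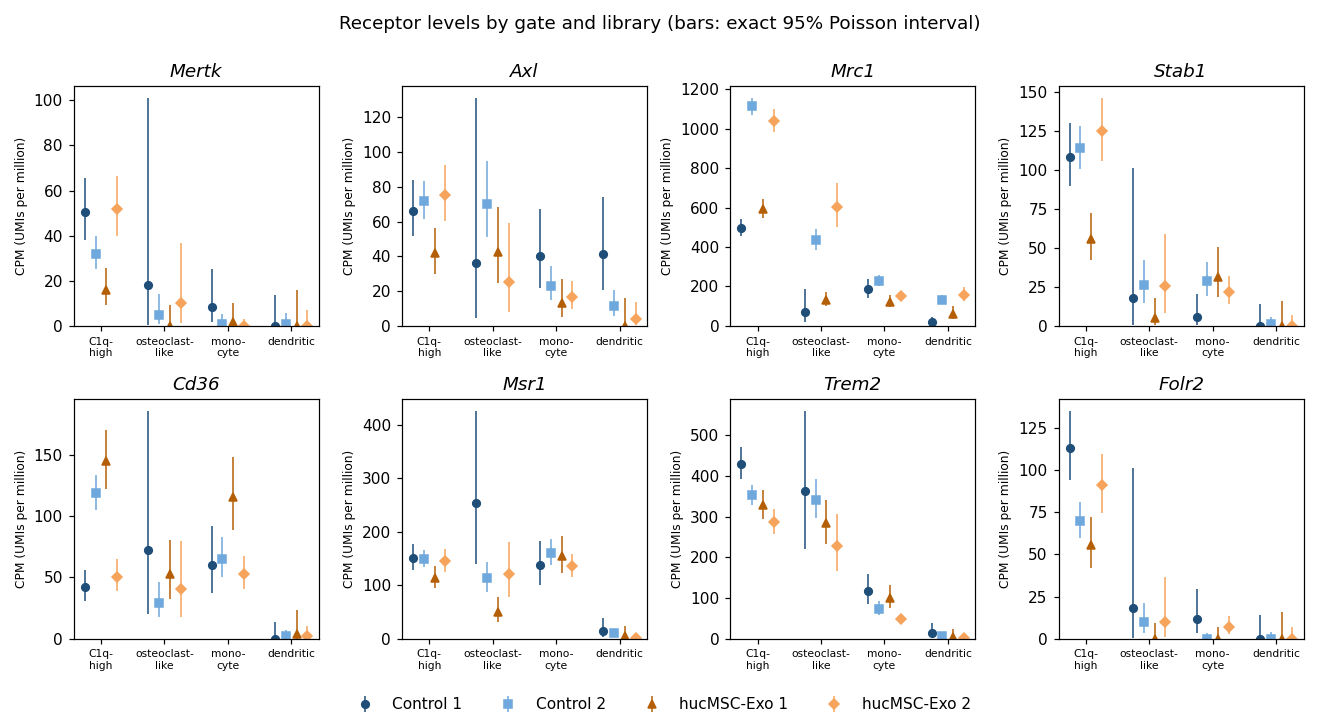
Level of each receptor (y axis, CPM) in the 4 gates (x axis); each point is 1 library and each bar its exact 95% Poisson interval, which covers counting error only. Mertk, Stab1 and Folr2 stand highest in the C1q-high gate, Msr1 is as high in monocytes, and the Control 1 points of the osteoclast-like gate rest on 6 cells.

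Mertk, which drives engulfment of apoptotic cells, was measured at 50.4, 31.9, 15.9 and 52.0 CPM in the C1q-high gate. In monocytes it was at 8.59, 0.96, 1.86 and 0 CPM, which is 5 UMIs in all against 209 in C1q-high cells. Every C1q-high library lay above every monocyte library. The log2 fold change against monocytes was 4.29 ± 0.52 (SE, adjusted p = 9.4e-06), and against the osteoclast-like gate it was 2.76 ± 0.62 (adjusted p = 0.00998). Without Control 2 the latter no longer passed (adjusted p = 0.162).

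Axl, the other TAM kinase, was spread more widely. Its C1q-high levels were 66.3, 71.7, 41.6 and 75.1 CPM, its osteoclast-like levels 36.3, 70.4, 42.6 and 25.4 CPM, and its monocyte levels 40.1, 23.0, 13.0 and 16.4 CPM. C1q-high exceeded monocytes by a log2 fold change of 1.51 ± 0.30 (adjusted p = 0.00135). Between the C1q-high and osteoclast-like gates the difference was 0.17, with a 95% interval from -0.54 to 0.88. In the dendritic gate Axl was at 41.3 CPM in Control 1 and between 0 and 11.4 CPM in the others.

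Folr2 was rare outside the C1q-high gate, as Mertk was, and stood at 113, 69.6, 55.5 and 90.8 CPM there. No UMI was found in 199 dendritic cells, so that the pooled C1q-high level was at least 52.9-fold higher, taking 3 counts over the dendritic gate as the limit. Monocytes had 12 UMIs against 453, a pooled ratio of 20.6 (exact interval 11.7 to 40.1, which covers counting error only), and osteoclast-like cells had 9. Of the 12 monocyte UMIs, 8 came from 2 cells of hucMSC-Exo 2. By the test Folr2 was higher in C1q-high cells than in monocytes (log2 fold change 4.27 ± 0.43, adjusted p = 4.0e-06) and than in osteoclast-like cells (3.29 ± 0.54, adjusted p = 0.00151), although DESeq2 did not call the latter (adjusted p = 0.136).

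Stab1 and Mrc1, both endocytic receptors of resident macrophages, were also highest in C1q-high cells. Stab1 was at 108, 114, 55.5 and 125 CPM, against 5.73, 28.7, 31.6 and 21.5 CPM in monocytes, with no overlap (log2 fold change 2.04 ± 0.28, adjusted p = 3.7e-05). Only 1 Stab1 UMI was seen in dendritic cells. Mrc1 was at 498, 1114, 594 and 1039 CPM in C1q-high cells and at 186, 228, 123 and 152 CPM in monocytes (2.14 ± 0.27, adjusted p = 1.2e-05). Dendritic cells had 18.8, 130, 59.9 and 159 CPM. Monocytes exceeded dendritic cells in Mrc1 by 0.83 ± 0.31 (adjusted p = 0.043), a call lost without Control 1, Control 2 or hucMSC-Exo 1 (adjusted p = 0.207, 0.101 and 0.0941).

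Cd36, the fatty acid and oxidised lipoprotein receptor, and Msr1 did not follow this order. Cd36 was at 42.0, 119, 145 and 50.4 CPM in C1q-high cells and at 60.1, 65.1, 115 and 52.5 CPM in monocytes, and the groups overlapped (log2 fold change 0.19, 95% interval -0.23 to 0.61). Msr1 was at 151, 150, 114 and 145 CPM in C1q-high cells and at 137, 161, 154 and 135 CPM in monocytes (-0.16, interval -0.55 to 0.23). Both were low in dendritic cells, at no more than 4.28 CPM for Cd36 and 15.04 CPM for Msr1. Cd36 passed against the osteoclast-like gate (1.38 ± 0.28, adjusted p = 0.00483), but not without Control 2 (adjusted p = 0.16) or without hucMSC-Exo 1 (adjusted p = 0.0668).

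Trem2, the lipid-sensing receptor, was shared by C1q-high and osteoclast-like cells. It was at 430, 352, 328 and 287 CPM in the former and at 363, 342, 283 and 228 CPM in the latter, a difference of 0.14 with a 95% interval from -0.24 to 0.51. Monocytes had 117, 73.7, 100 and 47.4 CPM, below every library of both (C1q-high against monocytes 2.04 ± 0.17, adjusted p = 8.2e-08). Osteoclast-like cells exceeded monocytes by 1.90 ± 0.19 (adjusted p = 5.8e-06). Tyrobp, which encodes its signalling adaptor, was at 1533 to 2209 CPM in C1q-high cells and 1990 to 2413 CPM in monocytes.

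**Figure D2:**
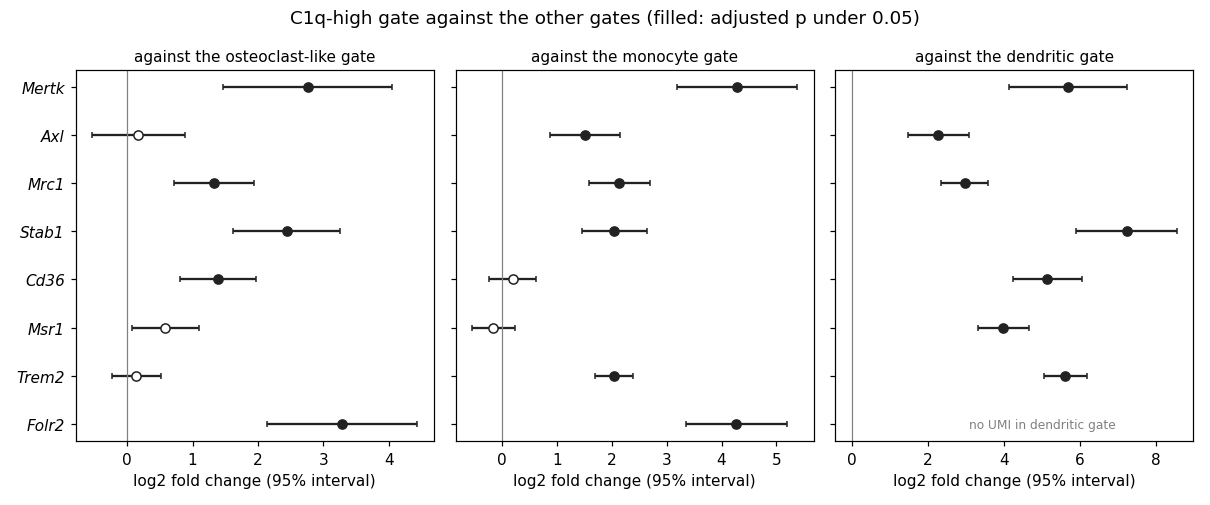
Log2 fold change of each receptor (x axis) in the C1q-high gate against each other gate, with the 95% interval; filled points passed an adjusted p of 0.05. Axl, Msr1 and Trem2 against osteoclast-like cells and Cd36 and Msr1 against monocytes are open, and no fold is drawn for Folr2 against dendritic cells, which had no UMI.

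The shares of cells with a UMI gave the same order for the receptors of highest level. Mrc1 was seen in 76.4% ± 6.9 of C1q-high cells (SD, n = 4 libraries), 29.8% ± 8.5 of monocytes and 21.8% ± 10.7 of dendritic cells. T cells, which should lack it, had a UMI in 3 of 1476 cells, with a median of 3930 UMIs a cell against 6841 to 7936 in C1q-high cells. Trem2 was seen in 65.5% ± 7.8 of C1q-high cells and 32.2% ± 9.3 of monocytes, and in 6 T cells. Msr1 was seen in 48.2% ± 4.0 and 47.3% ± 3.0, and in no T cell, which allows a share of up to 0.25% by the exact interval. Cells with at least 1000 UMIs, which were 774 of the C1q-high cells and 455 of the monocytes, were then thinned to 1000 UMIs, and the rest were left out. In the thinned cells Mrc1 was seen in 23.7% to 59.0% of C1q-high cells and 10.3% to 17.7% of monocytes, and in 0% of T cells. Thinned shares of Mertk were 1.92% to 6.47% in C1q-high cells and at most 1.85% in monocytes.

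Single cells rarely showed several receptors at this depth. At 1000 UMIs a C1q-high cell had a UMI of 1.18 of the 8 receptors on average, 27.5% had none and 1.42% had 4 or more. The mean was 0.69 in osteoclast-like cells within the limit on genes, 0.45 in monocytes, 0.13 in dendritic cells and 0.01 in T cells. Among C1q-high cells, Folr2 was seen in 10.4% of cells with Mrc1 and in 3.36% of those without, and Mrc1 in 71.4% of cells with Mertk and in 45.2% of those without. These were the pairs with the strongest positive association, and most others were near none or went the other way. Mrc1 was seen in 31.8% of cells with Axl and in 47.0% of those without, and Cd36 in 0% and 7.12%. These pairings are over cells of 4 mice in sparse counts and carry no test.

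The C1q-high gate was not uniform. Clustering without the receptors and without the wider uptake genes split it into a cluster led by Ccl8 and Igf1, which held 73.6%, 23.6%, 21.9% and 44.7% of the gate by library, and a cluster led by Spp1 and Arg1, which held 12.2%, 66.0%, 67.1% and 46.3%. Folr2 was at 138, 176, 214 and 173 CPM in the Ccl8 Igf1 cluster and at 10.9, 40.4, 18.2 and 20.7 CPM in the other, with no overlap. Mertk was at 54.7, 61.3, 46.9 and 81.3 CPM against 32.7, 24.5, 9.09 and 29.3 CPM, again with no overlap. Mrc1 was higher in the Ccl8 Igf1 cluster within each library, at 526, 1797, 1501 and 1459 CPM against 436, 936, 390 and 719 CPM.

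Msr1 ran the other way, at 135, 119, 115 and 88.3 CPM in the Ccl8 Igf1 cluster and 234, 162, 120 and 210 CPM in the Spp1 Arg1 cluster. Cd36 was higher in the Spp1 Arg1 cluster in 3 libraries, at 156, 168 and 81.0 CPM against 13.0, 78.2 and 23.0 CPM, and lower in Control 1, where that cluster held 18 cells. Stab1 was higher in the Ccl8 Igf1 cluster in the same 3 libraries and lower in Control 1. Trem2 averaged 378 and 385 CPM and Axl 62.5 and 71.0 CPM in the Ccl8 Igf1 and Spp1 Arg1 clusters. Since the cells were clustered by expression, the levels in the Ccl8 Igf1 and Spp1 Arg1 clusters are descriptions without a test. How many of all genes separated between the clusters, or ran the same way in every library, was not counted. The separation is thus no result about these receptors. The cluster levels bear on the gate contrasts: against monocytes, Cd36 in the Ccl8 Igf1 cluster alone differed by -1.09 on the log2 scale, where the whole gate differed by 0.19.

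**Figure D3:**
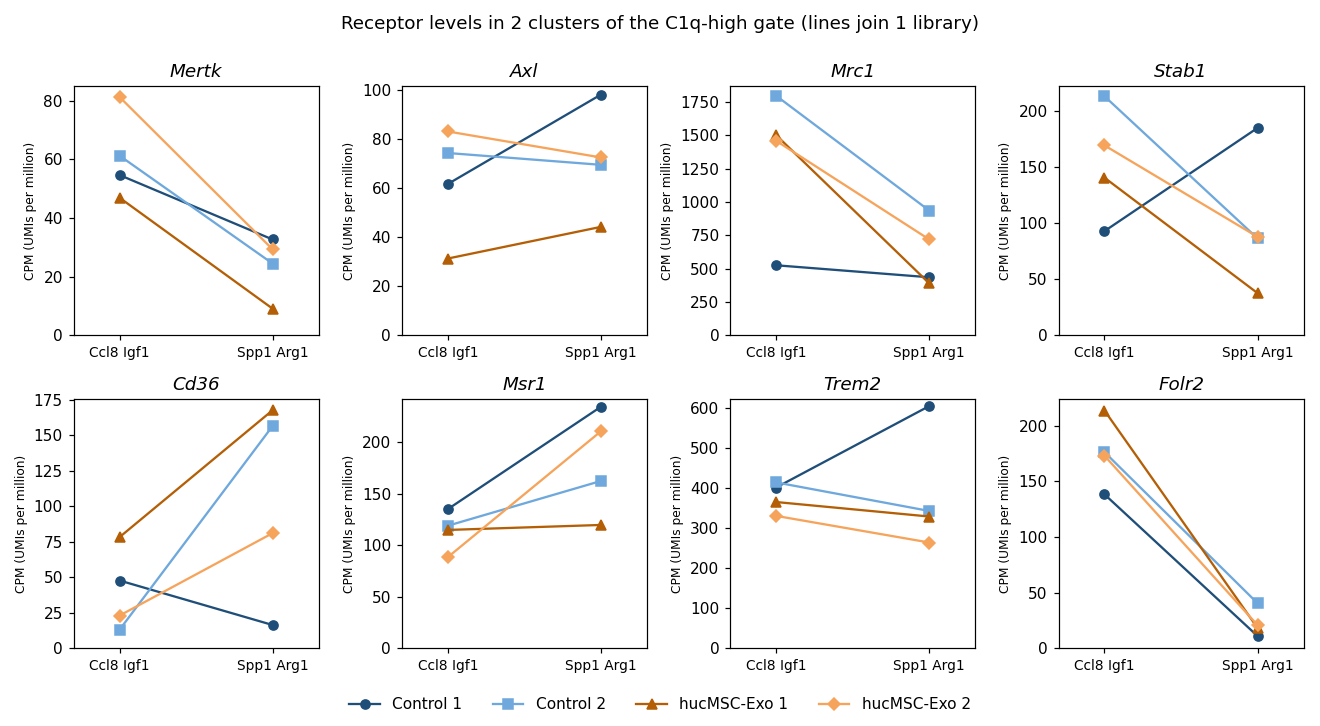
Level of each receptor (y axis, CPM) in the Ccl8 Igf1 and the Spp1 Arg1 cluster of the C1q-high gate; lines join the 2 values of 1 library. Folr2, Mertk and Mrc1 fall from left to right in all 4 libraries and Msr1 rises in all 4. How many of all genes do so was not counted.

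In osteoclast-like cells over 3000 genes, Trem2, Axl and Msr1 were well measured and most other receptors were near 0. Trem2 was at 138, 195, 209 and 189 CPM and Axl at 23.4, 44.7, 32.6 and 56.7 CPM. Mrc1 was at 2.60, 22.2, 5.84 and 164 CPM, the last from 8 cells, where kept osteoclast-like cells had 72.6, 434, 133 and 604 CPM. Msr1 was at 36.4, 27.9, 24.2 and 69.3 CPM. Cd36 was at 0, 4.29, 7.51 and 37.8 CPM, again highest in the library with 8 cells. Stab1 was at most 6.44 CPM, Mertk at most 6.30 CPM and Folr2 at most 8.35 CPM. C1q-high cells over 3000 genes differed from this, with Mrc1 at 787, 715 and 1690 CPM in the 3 libraries that had more than 2 such cells.

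**Figure D4:**
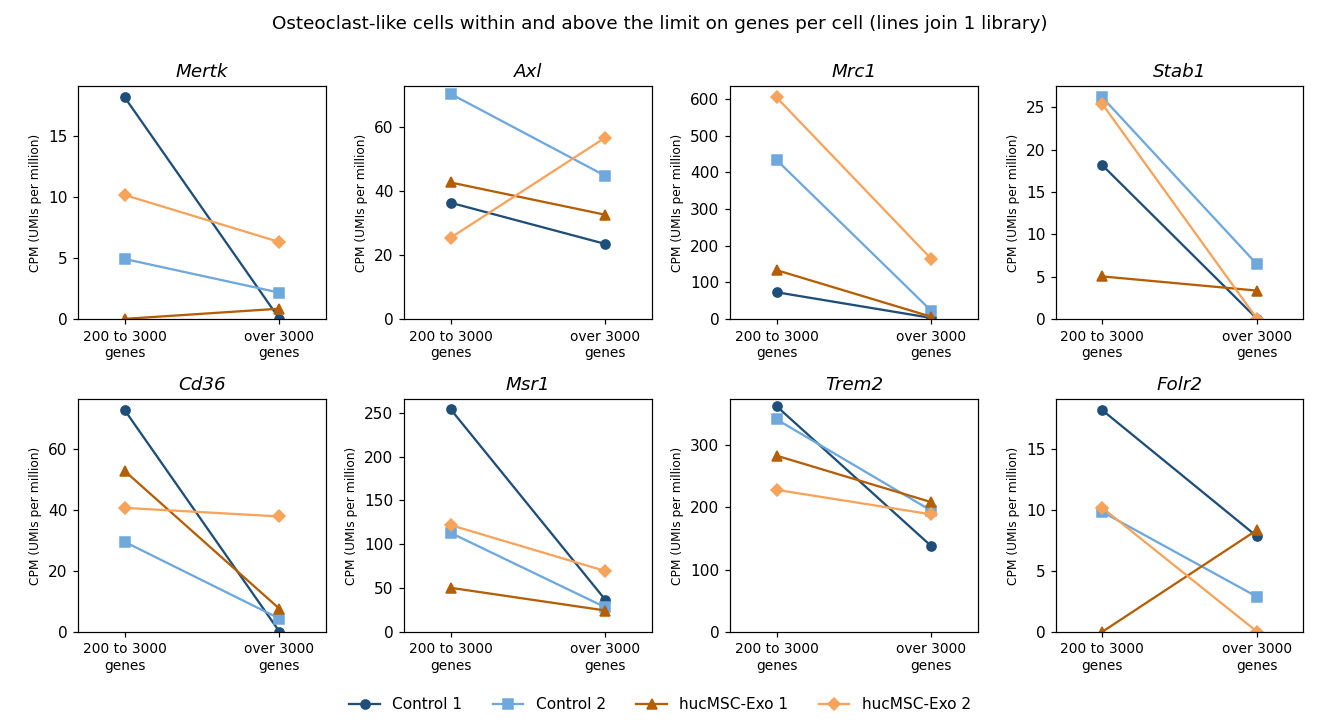
Level of each receptor (y axis, CPM) in osteoclast-like cells within the limit of 3000 genes and above it; lines join 1 library. Mrc1, Msr1, Cd36 and Trem2 are lower above the limit in all 4 libraries. Trem2 lies between 138 and 209 CPM above it and between 228 and 363 CPM within it.

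With no upper limit on genes, all 8 receptors were lower in osteoclast-like than in C1q-high cells, where 21.7% of 8010 genes were called higher in C1q-high cells and 19.3% lower (41% in either direction). The median log2 fold change of the 8 was then 3.42. Mrc1 differed by 3.51 ± 0.44 (adjusted p = 7.9e-06), Msr1 by 1.77 ± 0.24 (adjusted p = 1.4e-05) and Trem2 by 0.98 ± 0.19 (adjusted p = 0.00049). The log2 fold change was 3.73 ± 0.42 for Mertk, 3.88 ± 0.39 for Folr2, 4.19 ± 0.38 for Stab1 and 3.33 ± 0.32 for Cd36 (adjusted p at most 2.9e-06), and 0.80 ± 0.25 for Axl (adjusted p = 0.0174).

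Osteoclast-like cells and monocytes differed in Trem2, above, and in Axl and Cd36. Axl was higher in osteoclast-like cells (1.34 ± 0.40, adjusted p = 0.0335), and Cd36 was lower (-1.20 ± 0.29, adjusted p = 0.0114), where 6.16% of genes were called higher and 6.23% lower (12.4% in either direction). Without Control 2 or without hucMSC-Exo 1 neither passed, with adjusted p = 0.35 and 0.122 for Axl and 0.108 and 0.094 for Cd36. Mrc1 turned with the cell filter. It was higher in osteoclast-like cells by 0.81 (adjusted p = 0.0913) within the limit and lower by a log2 fold change of -1.28 (adjusted p = 0.0247) without it, and against dendritic cells it went from 1.65 (adjusted p = 0.000784) to -0.63 (adjusted p = 0.277). Without the limit, Msr1 (-1.75), Stab1 (-1.96) and Cd36 (-3.06) were lower in osteoclast-like cells than in monocytes, and Trem2 (1.16) and Axl (0.80) were higher, where 24.4% of genes were called lower and 24% higher (48.4% in either direction).

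Against dendritic cells, 7 of the 8 receptors were higher in osteoclast-like cells, with 13.5% of genes called higher and 12.3% lower (25.8% in either direction), and Mertk, with 6 UMIs against 1, was not called (adjusted p = 0.123). Without the limit on genes 6 were higher, with 21.3% of genes called higher and 23.1% lower (44.4% in either direction). Without Control 2, Axl, Stab1 and Folr2 lost the call (adjusted p = 0.125, 0.0863 and 0.245). Monocytes exceeded dendritic cells in Cd36, Msr1, Stab1, Trem2 and Mrc1, with 18.1% of genes called higher and 15.9% lower (34% in either direction). Axl, Mertk and Folr2 were not called between these gates (adjusted p = 0.221, 0.474 and 0.058). Without the limit on genes Mrc1 was no longer called (0.65 ± 0.43, adjusted p = 0.29), which left 4.

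The treated and untreated wounds were compared within each gate, to ask whether the exosomes went with a change in the uptake receptors. No receptor was called in the C1q-high, monocyte or dendritic gate, and 0% of 7245, 5894 and 4044 genes were called there. At an unadjusted p under 0.05 there were 79, 131 and 74 genes, and DESeq2 called 0, 3 and 0. With the groups of the titles, Mrc1 in the C1q-high gate differed by 0.03 on the log2 scale between hucMSC-Exo and Control, with a 95% interval from -0.86 to 0.93. The intervals of the other 7 receptors lay between -1.29 and 1.53, which is the precision that 2 libraries a group allowed. The median of the 8 was -0.24 against 0.01 over all genes.

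In the grouping by titles, replicates of a group often differed more than the groups did. Within Control, Mrc1 in C1q-high cells was at 498 and 1114 CPM, and within hucMSC-Exo at 594 and 1039 CPM. Cd36 was at 42.0 and 119 CPM in Control and at 145 and 50.4 CPM in hucMSC-Exo, so both groups held a high and a low library. The makeup of the gate differed in the same libraries, and neutrophil transcripts (S100a8 and S100a9) in it ranged from 26.1 to 233 CPM in Control and from 53.5 to 162 CPM in hucMSC-Exo. The part of either in these levels was not tested. Trem2 was lower in both hucMSC-Exo libraries than in both Control libraries (-0.32, interval -1.04 to 0.39, adjusted p = 1.00), a description of 4 values that did not pass. Msr1 separated in the same way, at 151 and 150 CPM in Control and at 114 and 145 CPM in hucMSC-Exo, and did not pass either. The other receptors overlapped, and how many of all genes separated in this way was not counted.

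By the letters in the matrix names, Control 2 and hucMSC-Exo 1 would trade groups, and the description of the C1q-high gate would change. Mrc1 would then be at 498 and 594 CPM in untreated and at 1114 and 1039 CPM in treated wounds, with no overlap. Axl (66.3 and 41.6 against 71.7 and 75.1 CPM) and Stab1 (108 and 55.5 against 114 and 125 CPM) would not overlap either. The other 5 receptors would overlap there, Trem2 and Msr1 among them, as would Axl and Mrc1 in monocytes. How many of all genes would separate in this way was not counted, so the separation is no result about these receptors. No test was made in that grouping, so neither the small difference in Mrc1 nor its direction is settled by these data.

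Among monocytes 6 receptors had enough counts to be tested. Axl was at 40.1 and 23.0 CPM in Control and at 13.0 and 16.4 CPM in hucMSC-Exo, which do not overlap, and Mrc1 at 186 and 228 CPM against 123 and 152 CPM, which do not overlap either. Neither passed (-0.86, interval -1.95 to 0.23, and -0.48, interval -1.13 to 0.16, both with adjusted p = 1.00). Stab1, Cd36, Msr1 and Trem2 overlapped between the groups. How many of all genes separated like Axl and Mrc1 was not counted, so the separation is no result about these receptors. Neutrophil transcripts (S100a8 and S100a9) in the monocyte gate were at 17.2 and 179 CPM in Control and at 402 and 506 CPM in hucMSC-Exo, which do not overlap. Their part in the Axl and Mrc1 values was not tested. In the dendritic gate only Mrc1 was tested, and it differed by 0.45 with an interval from -1.04 to 1.94. Without Control 2 it rose by 2.63 (adjusted p = 0.00128), when Control was Control 1 alone, with 5 UMIs of Mrc1 in 27 cells, and the spread was taken from the hucMSC-Exo libraries.

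Control 1 had 6 osteoclast-like cells, under the minimum of 10, so that gate had no test between the groups as planned. With no upper limit on genes it had 16 cells, and 0% of 7113 genes were called, with 79 at an unadjusted p under 0.05. Cd36 was then at 7.07, 5.27, 16.6 and 29.9 CPM, higher in both hucMSC-Exo libraries (1.93, interval 0.43 to 3.43, unadjusted p = 0.0176 and adjusted p = 1.00 in edgeR). The levels rest on 3, 17, 25 and 8 UMIs. How many of all genes separated in this way was not counted, so the separation is no result about Cd36. By the letters in the matrix names the groups would overlap in Cd36. The keratinocyte genes Krtdap (2.03), Krt79 (3.27) and Krt1 (1.78), singled out after their values were seen, had smaller unadjusted p in the same fit and were not called either. The 4 keratinocyte markers Krt5, Krt14, Krt1 and Krt10 summed to 490, 120, 393 and 239 CPM, where the groups overlap and none of the 4 was at 0, and their part in the Cd36 values was not tested. Mrc1 was at 11.8, 68.8, 35.1 and 351 CPM, and the groups overlapped.

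**Figure D5:**
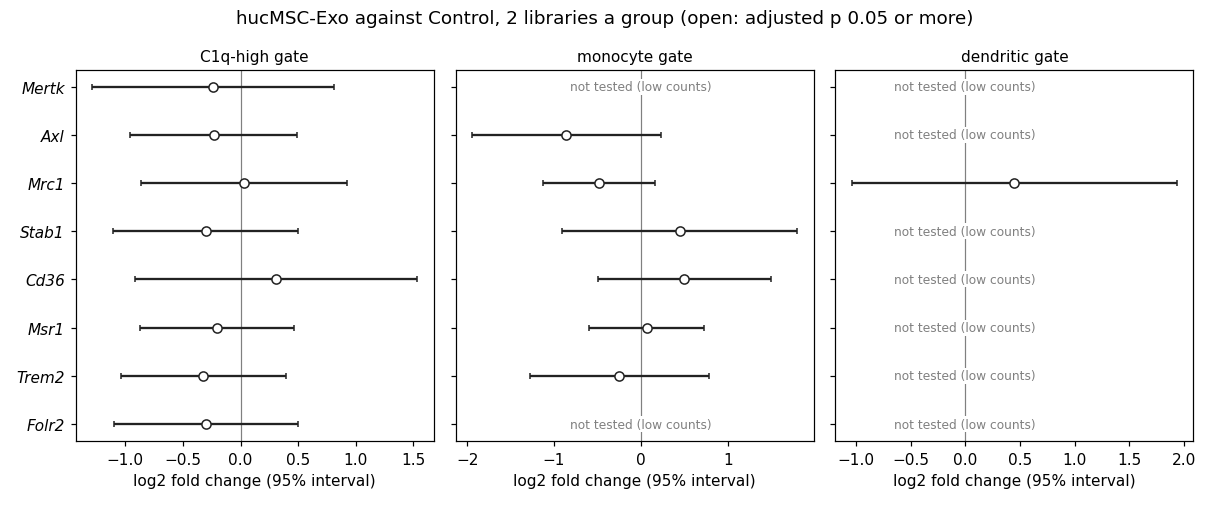
Log2 fold change of each receptor (x axis), hucMSC-Exo against Control, in 3 gates, with the 95% interval from 2 libraries a group. Every interval spans 0, and receptors with low counts were not tested.

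A wider list of 54 genes of the uptake pathway was described beside the receptors, of which 43 were tested between gates. In C1q-high cells 11 were higher and 5 lower than in monocytes, where 11% of all genes were called higher and 11.3% lower. Against dendritic cells 26 were higher and 3 lower, beside 23% and 20.5% of all genes. The bridging ligand of the TAM kinases, Gas6, was at 102, 107, 67.4 and 132 CPM in C1q-high cells and at most 8.59 CPM in monocytes (log2 fold change 4.35 ± 0.30, adjusted p = 1.2e-08), so that Gas6 and Mertk were high in the same gate. Pros1, which encodes protein S, was not called in any of the 3 comparisons of C1q-high cells. Apoe, a Trem2 ligand that carries lipid, was at 10473 to 19734 CPM in C1q-high cells and at 2235 to 3456 CPM in monocytes (2.29 ± 0.29, adjusted p = 1.2e-05). Mfge8, a bridge to integrins, was lower in C1q-high than in dendritic cells (-3.46 ± 0.28, adjusted p = 1.5e-08).

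Among other uptake receptors and their brakes, Cd163, the haemoglobin scavenger receptor, was higher in C1q-high cells than in monocytes, where 1 of 4 libraries had any UMI. The integrin gene Itgb5 was higher by 1.28 ± 0.19 (adjusted p = 9.6e-05) and Sirpa, which receives the Cd47 signal that restrains engulfment, by 1.22 ± 0.16 (adjusted p = 1.8e-05). Cd300lf (-1.999) and Trem1 (-2.30) were lower than in monocytes. So was Thbs1 (-1.25), which was listed with the bridging ligands and not with the receptors. Of 12 genes of lipid efflux and lysosomal digestion 5 were higher in C1q-high cells than in monocytes, among them the cholesterol exporter Abca1 (1.21 ± 0.22), and 1 was lower, beside the same 11% and 11.3% of all genes. Against osteoclast-like cells 4 of the 43 were higher and 2 lower, beside 4.11% and 2.92% of all genes. Without the limit on genes 26 of 44 were higher and 5 lower, beside 21.7% and 19.3%. Between the groups none of the tested genes of this list was called in any gate. Of the list, 2 genes were not analysed here.

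The genes whose levels ran most like those of each receptor over the 15 sums of gate and library, by Pearson r of log2 CPM among 6392 genes, are given as a description. The sums share libraries and gates, so no p is given. Ccl12 and Arhgap19 stood nearest to both Folr2 (r = 0.96 and 0.94) and Mertk (0.92 and 0.95), with Ccl8 for Mertk (0.93) and Itm2b for Folr2 (0.93). Lgmn, C3ar1 and Glul stood nearest to Stab1 (0.94, 0.94 and 0.93), and Rnf13, Impact and Tpra1 to Mrc1 (0.94, 0.93 and 0.93). For Trem2 they were Arhgap10, Hexa and Itsn1 (0.96, 0.96 and 0.95), for Cd36 Slc11a1, Plin2 and Rcbtb2 (0.98, 0.97 and 0.96), for Msr1 Apoc2, Arap1 and Pilra (0.98, 0.97 and 0.97), and for Axl Cpd, Ankrd40 and Slc38a6 (0.96, 0.95 and 0.93).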

How the data were processed

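The authors deposited raw UMI counts per gene and cell for 4 libraries, made with Cell Ranger 6.1.2 on mm10 per the labels. The study's own cell filter was applied, with 200 to 3000 genes a cell and a mitochondrial share of up to 10%. Scrublet called 0.273% to 0.826% of cells doublets, and they were kept except in an alternative. Each cell joined the marker list with the highest mean z-score of log(1 + UMIs per 10000), if at least 2 of its markers were detected. This scoring was written after the files were opened and was not revised afterwards. The counts were summed per library and gate where it had at least 10 cells, and tested with edgeR 4.0.16 (quasi-likelihood, TMM, filterByExpr, Benjamini-Hochberg over all genes tested at 0.05, gate markers left out). Gate comparisons used 15 sums with the library as a block, and group comparisons used 2 libraries against 2. DESeq2 1.42.0 was an alternative, and 11 to 14 alternatives were run per comparison. The fits were checked on simulated counts. Depth was 4779405 to 11243740 UMIs per library in kept cells. Intervals on CPM, shares and pooled ratios are exact (95%) and cover counting error only. Clusters (scanpy 1.11.5, Leiden) were made without the receptors and the pathway list. The members and lists were chosen with earlier results of these data known. The genes named are the 8 receptors, of the pathway list up to 12 called and 5 uncalled genes a comparison by size of change, and the 3 nearest genes by correlation for each receptor.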

Additional observations from a re-analysis of the deposited data

How the results depend on the processing

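Between gates, the receptors' log2 fold changes kept direction and side of the threshold in 517 cases over the alternatives, lost the call in 28, gained it in 15 and turned in 13. Between the groups 170 were kept, 1 gained the call and 23 turned, and every turned value between the groups was uncalled. The cause of these changes was not tested. Control 2 holds the most cells, and leaving it out moved the counts most. A library left alone in a group was assumed to vary like the other group.

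Genes called between hucMSC-Exo and Control were 0 in each gate. With no filter on low counts they were 19 in C1q-high, 48 in monocyte and 17 in dendritic cells, and DESeq2 called 3 in monocytes. Without 1 library at a time they ranged from 1 to 4, from 4 to 190 and from 0 to 152, the highest each without Control 2. The correlation of same-numbered deviations was -0.24, -0.18 and 0.10 in the C1q-high, monocyte and dendritic gates. With 2 libraries a group it is 1 value a gate, so it cannot decide whether the titles' numbers pair the libraries. The replicate block called 0 genes in C1q-high, 1 in monocyte and 0 in dendritic cells, and the crossed replicate block, added after seeing the data, called 25 in C1q-high cells and 7 in monocytes.

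Between gates, genes called without 1 library at a time ranged from 169 to 437 for C1q-high against osteoclast-like (450 with all), from 697 to 1412 against monocyte (1429) and from 1818 to 2817 against dendritic cells (2783), from 210 to 823 for osteoclast-like against monocyte (793), from 579 to 1722 against dendritic (1651) and from 1253 to 2033 for monocyte against dendritic cells (2179). With no library block C1q-high against osteoclast-like fell to 203, C1q-high against monocyte to 800 and osteoclast-like against monocyte to 391. With no upper limit on genes, C1q-high against osteoclast-like gave 3287, osteoclast-like against monocyte 3878 and against dendritic 3557. With the C1q-high gate limited to the Ccl8 Igf1 cluster, C1q-high against osteoclast-like gave 1442, and to the Spp1 Arg1 cluster 102. Both limits, and the gene limit, were added after seeing the data.

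Receptor values that turned were these. Between the groups in C1q-high cells, leaving out libraries gave ranges of -0.62 to 0.0552 for Axl, -0.75 to 1.23 for Cd36, -0.64 to 0.11 for Folr2, -1.25 to 0.29 for Mertk, -0.42 to 0.69 for Mrc1 and -0.90 to 0.10 for Stab1. In monocytes they were -0.18 to 1.04 for Cd36, -0.0702 to 0.22 for Msr1, -0.0372 to 2.25 for Stab1 and -0.90 to 0.27 for Trem2, and in dendritic cells -0.46 to 2.63 for Mrc1. In the Ccl8 Igf1 cluster alone Folr2 was 0.27, Mertk 0.24 and Stab1 0.0708. Mrc1 was -0.31 in the Spp1 Arg1 cluster alone and -0.0303 with no filter, and Msr1 was -0.12 in monocytes that passed a gate margin of 0.5. Between gates, the ranges were -0.16 to 0.34 for Axl (C1q-high against osteoclast-like), -0.0906 to 0.33 for Cd36 (C1q-high against monocyte), and -0.36 to 1.64 for Folr2 and -0.74 to 0.10 for Stab1 (osteoclast-like against monocyte). The gate margin gave -0.0138 for Axl and -0.0813 for Trem2 (C1q-high against osteoclast-like) and -0.20 for Cd36 (C1q-high against monocyte). The Ccl8 Igf1 cluster alone gave Cd36 -0.14 against osteoclast-like and -1.09 against monocyte cells. Msr1 against monocytes was 0.0157 with no gene limit and 0.16 in the Spp1 Arg1 cluster. With no gene limit Mrc1 was -1.28 for osteoclast-like against monocyte and -0.63 against dendritic cells.

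No planned test between the groups was made in the osteoclast-like gate, since Control 1 held 6 cells, and no cluster replaced that gate. Thinning to 1000 UMIs lowered the shares of cells, and Mertk and Folr2 shares outside C1q-high cells are limited by depth.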
